A study of Bos taurus with 4 samples.

Results

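Toll-like receptors (TLRs) are membrane proteins with which a cell detects molecules of microbes. A horseshoe of leucine-rich repeats binds the ligand, and a TIR domain inside the cell recruits the adaptors MYD88 and TICAM1, which lead to NF-κB and interferon regulatory factors. The family divides into surface receptors for lipopeptides (TLR2 with TLR1 or TLR6), lipopolysaccharide (TLR4) and flagellin (TLR5), and endosomal receptors for nucleic acids (TLR3, TLR7, TLR8 and TLR9), while TLR10 has no settled ligand. In the gut they are carried both by the epithelium and by leukocytes of the lamina propria, so their RNA in a piece of intestine is a sum over several cell types. The members were the rows of the count files whose gene symbol is TLR1 to TLR10. Of the 10 symbols, 9 had a row among the 29792 rows, and no row with the symbol TLR1 was used here. In the RefSeq gene table of the assembly ARS-UCD2.0, which holds the other 9 symbols, TLR1 is listed as a synonym of both TLR6 and TLR10, and the extents of these 2 genes overlap. Whether reads of a TLR1 transcript were counted on either row was not tested.

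The libraries came from 4 samples of Hanwoo cattle, with 1 library for each. They were intestine tissue, muscle tissue of a site the labels do not name, and intestinal organoids at passage 5 (P5) and passage 10 (P10). Organoids are hollow epithelial structures, here grown in Matrigel and IntestiCult medium from jejunal crypts of healthy animals over 24 months old, as the labels have it. The labels do not say whether the samples shared an animal, and they name no microbial ligand or other treatment. QuantSeq, the method used, reads polyadenylated RNA at its 3′ end, so the reads of a gene do not scale with its length. With 1 library for each sample, no difference between samples has a replicate check and none was tested. Levels are given in CPM (reads divided by the reads counted in the library, scaled to 1000000). The intervals in brackets are exact 95% intervals for a share or for a ratio of shares. They cover counting error only and treat each read as independent. Copies made by PCR are not independent molecules, so where reads are such copies the intervals are too narrow. A gene with 3 reads or fewer was taken as not detected. A fold against 0 reads is a lower bound computed at 3 reads, a fold against 1 to 3 reads is the ratio of the reads themselves with its interval, and at least 2-fold was taken as higher or lower. The library totals ran from 12917720 to 17776273 reads, and 3 reads correspond to 0.169 to 0.232 CPM.

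The cell types behind the libraries were checked with marker genes. The 10 epithelial markers (EPCAM, KRT8, VIL1 and others) summed to 3173 CPM in intestine, 12595 at P5, 10349 at P10 and 27.3 in muscle. The 7 pan-leukocyte markers summed to 714 CPM in intestine, 51.6 in muscle, 15.4 at P5 and 17.9 at P10. PTPRC (CD45) had 3394 reads in intestine and 40 and 43 in P5 and P10 organoids. The macrophage genes CSF1R, C1QA, C1QB and C1QC and the T cell genes CD3D, CD3G and CD2 had 0 reads in both organoid libraries. Other members were detected. Of the 10 macrophage markers, 5 were detected at P5, with MRC1 at 37 reads and CD68 at 21. At P10 only CD68 was, with 21 reads. Of the 6 T cell markers, CD247 alone was detected, with 29 reads at P5 and 22 at P10. The B cell markers summed to 4902 CPM in intestine, 17.5 in muscle, 2.57 at P5 and 8.12 at P10. JCHAIN alone gave 4877 CPM of the intestine sum. Of the 7 B cell markers detected in intestine or muscle, 6 were higher in intestine. The 5 neutrophil markers with a row had 13 to 16 reads in every library. Markers of stroma and endothelium and of smooth muscle summed to 1042 and 2275 CPM in intestine, 1238 and 2245 in muscle, and 12.7 CPM or less in either organoid library. In muscle DES alone gave 2199 CPM of the smooth muscle sum, and the other 5 smooth muscle markers were higher in intestine. All 8 skeletal muscle markers were detected in muscle, and the row of the ribosomal RNA gene RN18S1 took 23.6% of its reads against 0.264% to 4.81% elsewhere.

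**Figure D1:**
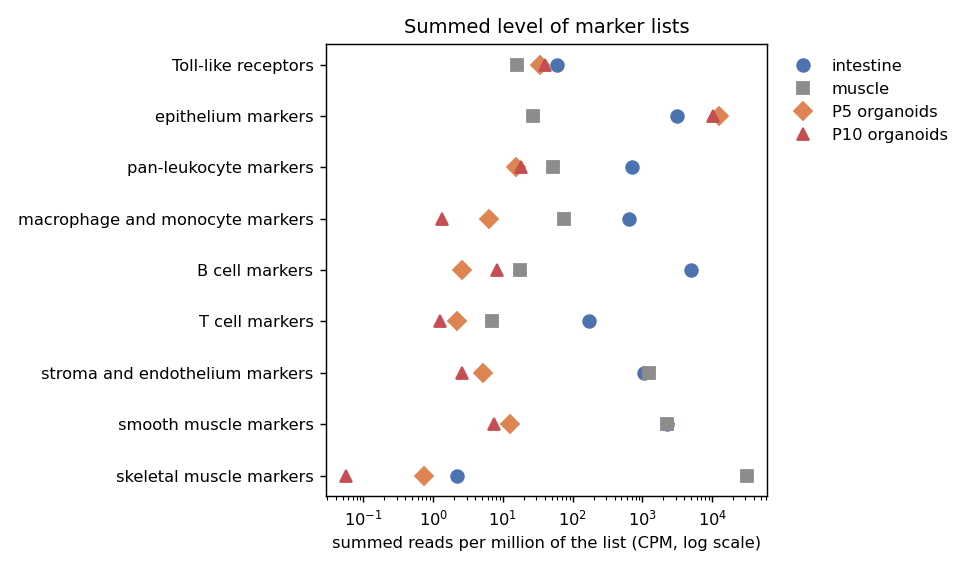
Summed CPM (log scale) of the Toll-like receptor rows and of 8 lists of cell type markers in the 4 libraries. The organoid libraries lie at 15.4 and 17.9 CPM for the pan-leukocyte markers, against 714 in intestine, and above intestine for the epithelial markers.

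The number of Toll-like receptor genes detected was 8 of 9 in intestine, 6 in muscle and 5 in each organoid library. Of all 29792 rows, 60.3% were detected in intestine, 52.3% in muscle, 56.5% at P5 and 53.5% at P10. TLR2, TLR3, TLR4, TLR5 and TLR6 were detected in every library. TLR7 was detected in intestine and muscle, and TLR8 and TLR10 in intestine alone. TLR9 had 0 reads in all 4 libraries, which allows up to 3 reads, or 0.232 CPM in muscle, the library with the fewest reads, where the exact interval reaches 0.286 CPM. The whole family was counted with 1070 reads in intestine, 207 in muscle, 466 at P5 and 708 at P10, or 60.2, 16.0, 34.3 and 39.9 CPM. The family sum was therefore 1.76-fold (1.57 to 1.96) lower in P5 organoids than in intestine and 1.51-fold (1.37 to 1.66) lower in P10 organoids.

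**Figure D2:**
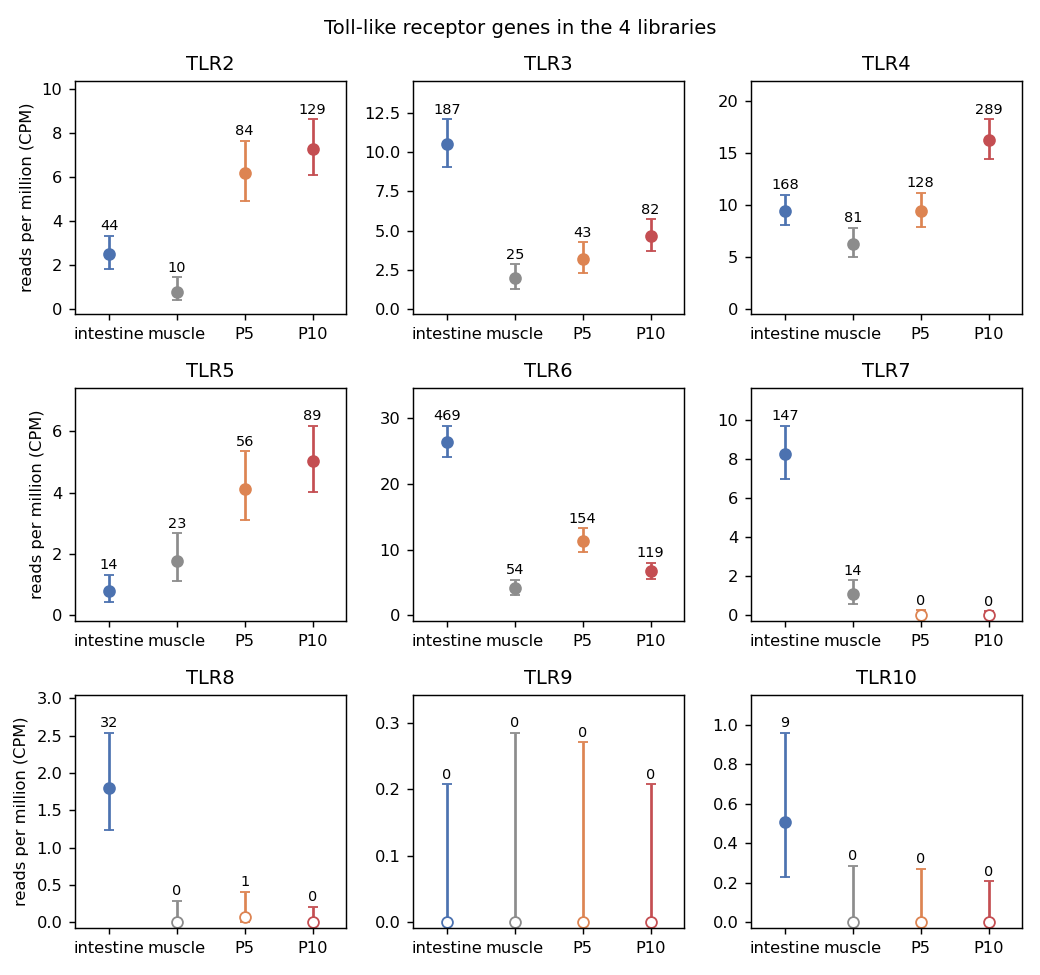
Level of each Toll-like receptor gene in CPM (linear scale, a separate one for each gene) in the 4 libraries, with exact 95% counting intervals and the number of reads above each point. Open points have 3 reads or fewer. TLR2 and TLR5 were highest in P10 organoids, and TLR7, TLR8 and TLR10 had at most 1 read in either organoid library.

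In organoids, 2 members were higher than in intestine and 5 were lower, and the same genes made up both groups at P5 and P10. TLR2 and TLR5 were higher, TLR3, TLR6, TLR7, TLR8 and TLR10 were lower, and TLR4 was within 2-fold, among the 8 members detected in either library. Over all rows detected in either library, 22.8% were higher and 23.7% lower in P5 organoids than in intestine, and 26.2% were higher and 28.2% lower in P10 organoids. TLR7, TLR8 and TLR10 entered these counts through intestine alone. Of the 5 members detected in all libraries, 2 were higher and 2 lower at either passage. The call of TLR10 was lost with quantile normalisation and with a limit of 10 reads. Both comparisons share the intestine library and are not independent. In tissue, fewer cells of a type and less RNA per cell cannot be told apart.

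**Figure D3:**
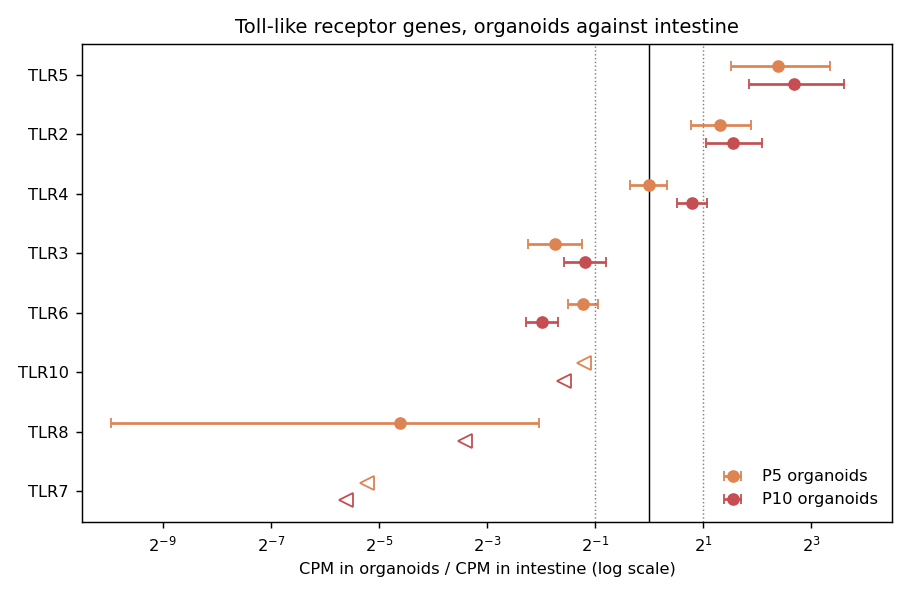
Ratio of the CPM in organoids to that in intestine (log scale) for the 8 members detected in intestine, with exact 95% counting intervals; the dotted lines mark 2-fold either way. Open triangles are upper limits for genes with 0 reads in the organoid library. TLR5 and TLR2 lie to the right of 1 at both passages, and TLR7 furthest to the left among the limits.

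Among the surface receptors, TLR5, which binds flagellin, differed most from intestine in the upward direction. It had 14 reads in intestine, 23 in muscle, 56 at P5 and 89 at P10, or 0.788, 1.78, 4.12 and 5.02 CPM. The level in P5 organoids was 5.23-fold (2.87 to 10.2) that in intestine and the level in P10 organoids 6.37-fold (3.61 to 12.1). The summed epithelial markers were 3.97-fold and 3.26-fold higher in the same comparisons, so the counting intervals of TLR5 included the ratio of the epithelial sum at P5 and lay above it at P10. Keratin genes gave most of that sum. The median log2 ratio of the 10 epithelial markers was 2.72 at P5 and 2.34 at P10, against 2.39 and 2.67 for TLR5. The single markers spread widely. KRT20 had 1299 CPM in intestine, 2347 at P5 and 684 at P10, and KRT18 had 46.4, 573 and 1878 in the same order. The ratios of TLR5 lay within this spread, and a departure from the epithelial markers was not tested. Intestine was the library with the least TLR5. It was lower than muscle by 2.26-fold (1.11 to 4.75), where the gene rested on 23 reads.

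TLR2, the shared partner in lipopeptide receptors, followed the same order of organoids over intestine from a higher level in the tissue. Its reads were 44 in intestine, 10 in muscle, 84 at P5 and 129 at P10 (2.48, 0.774, 6.18 and 7.28 CPM). The ratio to intestine was 2.50 (1.71 to 3.68) in P5 organoids and 2.94 (2.07 to 4.24) in P10 organoids. At P5 this interval lay below the ratio of the summed epithelial markers, and at P10 it included it. Beside the median log2 ratio of the 10 epithelial markers, 2.72 at P5 and 2.34 at P10, TLR2 was lower, with 1.32 and 1.56. These ratios of TLR2 still lay within the spread of the single markers, between those of KRT20 and KRT18 at both passages. The levels in the organoid libraries did not differ beyond counting error, with a P10 to P5 ratio of 1.18 (0.888 to 1.57).

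TLR6, which pairs with TLR2, went the other way. It was the member with the most reads in intestine, 469 (26.4 CPM), against 54 in muscle (4.18 CPM), 154 in P5 organoids (11.3 CPM) and 119 in P10 organoids (6.71 CPM). It was 2.33-fold (1.94 to 2.81) lower in P5 organoids than in intestine and 3.93-fold (3.21 to 4.85) lower in P10 organoids. The ratio of TLR6 to TLR2 reads thus differed between the tissue and the cultures, with more TLR6 than TLR2 in intestine and P5 organoids and slightly fewer reads in P10 organoids, 119 against 129. TLR10, whose gene overlaps TLR6, had 9 reads in intestine (0.506 CPM, 0.232 to 0.961) and 0 in the other libraries. In those 3 libraries TLR6 had 54 to 154 reads. With so few reads, TLR10 was at least 2.30-fold lower in P5 organoids by the limit of 3 reads, and by at least 1.51-fold by the exact interval. At P10 its log2 ratio to intestine turned to 0.688 with quantile normalisation.

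TLR4, the receptor for lipopolysaccharide, was present at like levels in intestine and P5 organoids and higher in P10 organoids. It had 168 reads in intestine (9.45 CPM), 81 in muscle (6.27 CPM), 128 in P5 organoids (9.41 CPM) and 289 in P10 organoids (16.3 CPM). The ratio to intestine was 0.996 (0.785 to 1.26) at P5 and 1.73 (1.42 to 2.10) at P10. The P10 library lay above intestine and P5 organoids beyond counting error, by less than 2-fold. Its ratio to muscle of 2.60 (2.02 to 3.37) did not keep its direction, with log2 ratios of 1.38 by library totals, 0.12 with TMM, -0.052 with upper-quartile and -0.111 with quantile normalisation.

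CD14 and LY96, the partners of TLR4 on the cell surface, were lower in both organoid libraries than in intestine. CD14, which hands lipopolysaccharide to the receptor, had 123 reads in intestine and in muscle, 10 at P5 and 0 at P10, at least 40.9-fold lower in P10 organoids than in intestine. CD14 is also a marker of monocytes and macrophages, whose 10 markers summed to 649 CPM in intestine, 6.40 at P5 and 1.35 at P10. LY96 (MD-2), the co-receptor that holds the lipid, had 122 reads in intestine, 42 in muscle, 17 at P5 and 36 at P10. It was 5.49-fold (3.29 to 9.73) lower than intestine at P5 and 3.38-fold (2.31 to 5.05) lower at P10. LBP, the secreted protein that extracts lipopolysaccharide from membranes, had 42 reads in intestine, 0 in muscle, 30 at P5 and 146 at P10, 3.73-fold (2.51 to 5.73) higher at P10 than at P5. In P10 organoids the reads of TLR4 thus stood beside 36 of LY96 and none of CD14.

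Of the endosomal receptors, TLR3 alone was detected in the organoids. TLR3, which binds duplex RNA and signals through TICAM1, had 187 reads in intestine (10.5 CPM), 25 in muscle (1.94 CPM), 43 in P5 organoids (3.16 CPM) and 82 in P10 organoids (4.62 CPM). It was 3.33-fold (2.38 to 4.75) lower in P5 organoids than in intestine and 2.27-fold (1.75 to 2.99) lower in P10 organoids. The difference between the organoid libraries was at the edge of counting error, with a ratio of 1.46 (0.999 to 2.17). Its adaptor TICAM1 had 359 reads in intestine, 19 in muscle, 150 at P5 and 172 at P10.

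TLR7 and TLR8, neighbouring genes for receptors of RNA, were at or near 0 in organoids. TLR7 had 147 reads in intestine (8.27 CPM), 14 in muscle (1.08 CPM) and 0 in either organoid library, at least 37.5-fold lower than intestine at P5 and at least 48.9-fold lower at P10. TLR8 had 32 reads in intestine (1.80 CPM), 0 in muscle, 1 at P5 and 0 at P10. With its 1 read at P5, TLR8 was 24.5-fold lower than in intestine, with an interval from 4.09 to 997, and at P10 at least 10.6-fold lower, a bound that is not comparable with the ratio at P5. Together with TLR10, these were 3 of the 8 members detected in intestine that were not detected in either organoid library. Among all rows detected in intestine, 11.1% were not detected in either. All 7 pan-leukocyte, all 10 macrophage and all 6 T cell markers were lower in both organoid libraries than in intestine. Of the B cell markers 7 were lower at either passage and PAX5 was higher at P5, with 2 reads in intestine and 11 at P5. Of the 3 neutrophil markers detected, 1 was lower, 1 was within 2-fold and S100A12 was higher, with 0 reads in intestine, 15 at P5 and 14 at P10. The part of these cells in the difference of TLR7, TLR8 and TLR10 was not tested. UNC93B1, the chaperone that carries the endosomal receptors out of the endoplasmic reticulum, had 646 reads in intestine, 21 in muscle, 527 at P5 and 736 at P10. Its ratio to intestine was 1.07 (0.949 to 1.198) at P5 and 1.14 (1.03 to 1.27) at P10. TLR7 and TLR8 were not detected in the organoids, and TLR9 had 0 reads in intestine and muscle as well.

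The make-up of the family reads differed between the libraries. TLR6 took 43.8% (40.8% to 46.9%) of the family reads in intestine, 33.0% (28.8% to 37.5%) in P5 organoids and 16.8% (14.1% to 19.8%) in P10 organoids. TLR4 took 15.7% (13.6% to 18.0%), 27.5% (23.5% to 31.8%) and 40.8% (37.2% to 44.5%). In muscle the largest share was also that of TLR4, 39.1% (32.4% to 46.1%). TLR2 took 4.11% in intestine and 18.0% and 18.2% in P5 and P10 organoids, and TLR5 took 1.31% in intestine and 12.6% at P10. These are shares of reads, not of molecules.

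**Figure D4:**
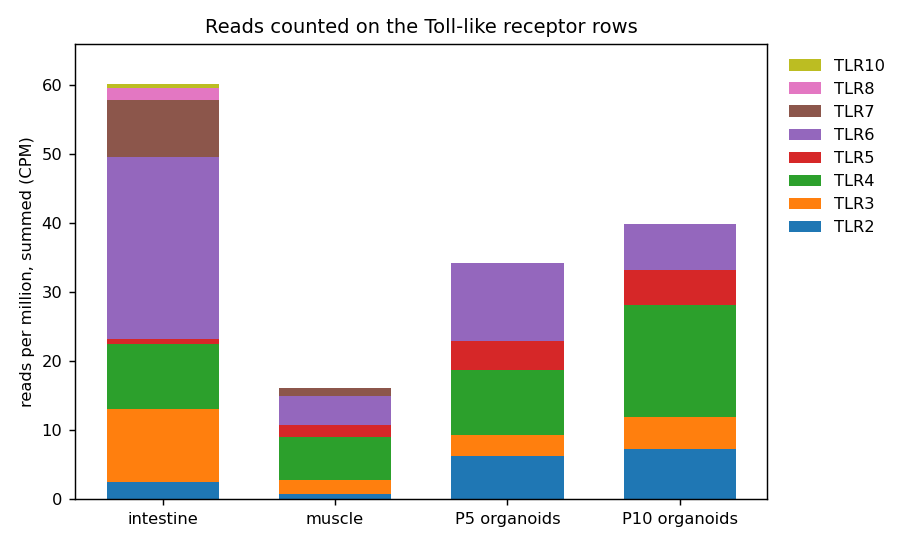
Stacked CPM of the Toll-like receptor rows in each library (linear scale from 0); TLR9, with no reads, is left out. The family sum was 60.2 CPM in intestine, 16.0 in muscle, 34.3 at P5 and 39.9 at P10, and TLR7, TLR8 and TLR10 contribute no visible part in the organoids.

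Between the passages, no member differed by 2-fold. Over all rows detected in either organoid library, 17.2% were higher and 20.8% lower at P10 than at P5. Of the 5 members detected, TLR4 was 1.73-fold (1.40 to 2.15) higher at P10 and TLR6 1.69-fold (1.32 to 2.16) lower. The intervals of TLR2, TLR3 and TLR5 included 1, and the ratio of TLR5 was 1.22 (0.863 to 1.73). With 1 library for each passage, passage and culture cannot be told apart.

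Against muscle, 6 of 8 members were higher in intestine by at least 2-fold and TLR5 was lower. Over all rows, 53.4% were higher and 12.5% lower, and the median row was itself 1.14 higher in intestine on the log2 scale, or 0.81 with RN18S1 left out of the totals. The largest ratio between detected values was that of TLR7, 7.63 (4.41 to 14.3), followed by TLR6, 6.31 (4.75 to 8.53), and TLR3, 5.44 (3.57 to 8.61). TLR8 was at least 7.75-fold higher. With TMM, upper-quartile or quantile normalisation, TLR3, TLR6, TLR7 and TLR8 stayed at least 2-fold higher and TLR2 and TLR10 did not, and TLR10 lay lower in intestine with the last 2 of these. The P5 organoids were higher than muscle in TLR2, TLR5 and TLR6, against 53.4% of all rows, and lower in TLR7, against 17.4%. P10 organoids were higher in TLR2, TLR3, TLR4 and TLR5, against 54.1% of all rows, and lower in TLR7, against 20.4%. Under each of those 3 normalisations, TLR2 was the 1 member at least 2-fold higher than muscle in organoids, and TLR5 at P5 and TLR3 and TLR4 at P10 fell below muscle with at least 1 of them. The share of all rows was not counted under those normalisations. The ratio of TLR2 to muscle by library totals was 7.98 (4.13 to 17.2) at P5 and 9.40 (4.95 to 20.1) at P10.

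Genes whose 4 levels had the most similar pattern were sought among the 15051 rows with at least 50 reads in some library. The measure of likeness was the sum of absolute differences between the 4 CPM values, each divided by their sum, so that 0 is an identical pattern. With 4 libraries such matches are a description. TLR7 was nearest to FGR (0.0020), RGS4 (0.0038) and GRAP (0.0038), each with 0 reads in both organoid libraries, and 130 rows lay within 0.1 of it. The nearest rows to TLR3 were SP140 (0.031), CTSA (0.049) and C1H21orf91 (0.053). TLR5 was nearest to THAP7 (0.023), MAML2 (0.042) and ITPR3 (0.046), and TLR6 to DLK2 (0.044), TMEM120A (0.047) and HACL1 (0.052). TLR2 was nearest to ZFAND2A (0.016), RAB3IP (0.021) and PALB2 (0.024). For TLR4 these were NDUFV1 (0.0088), MRPL10 (0.015) and LOC112444152 (0.015), and 281 rows lay within 0.1 of it.

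The other genes of the pathway were followed in lists of 16 accessory and trafficking proteins, 20 adaptors and proximal kinases, 10 transcription factors, 12 inhibitors and 10 target genes, with 15 other innate sensors beside them. All 83 had a row. Of the accessory and trafficking proteins, 2 were higher and 7 lower at P5 against intestine, beside 22.8% and 23.7% of all rows. CD36, a fatty acid carrier and co-receptor of TLR2 with TLR6, was 210-fold (129 to 368) lower, with 4394 reads in intestine and 16 in P5 organoids, and LY86 (MD-1), the partner of CD180 on B cells, was at least 61.2-fold lower. HSP90B1, the chaperone that folds the receptors, was 2.38-fold (2.28 to 2.49) higher. The proteases that cut endosomal receptors went in opposite directions, with CTSL 3.65-fold (2.50 to 5.43) higher and CTSS 3.49-fold (3.30 to 3.71) lower. At P10, CNPY3, a co-chaperone of HSP90B1, was 3.03-fold (2.12 to 4.42) higher than at P5 and CTSS 5.02-fold (4.46 to 5.65) lower, while the protease CTSB had a ratio of 0.881 (0.829 to 0.937).

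Most adaptors and kinases were within 2-fold of intestine in P5 organoids, 17 of 20, with IRAK1 and IKBKB higher and PIK3AP1 lower, beside 22.8% higher and 23.7% lower of all rows. In P10 organoids 10 of 20 were within 2-fold, 5 were higher and 5 lower, beside 26.2% and 28.2% of all rows. MYD88, the adaptor of most members, had 260 reads in intestine, 6 in muscle, 138 at P5 and 220 at P10, with a ratio to intestine of 0.694 (0.560 to 0.856) at P5 and 0.848 (0.706 to 1.02) at P10. TIRAP, which links MYD88 to TLR2 and TLR4, had 126, 42, 64 and 118 reads in the same order. IRAK1, the kinase downstream of MYD88, was 2.25-fold (1.91 to 2.65) higher at P5 than in intestine and a further 2.17-fold (1.93 to 2.43) higher in P10 than in P5 organoids. IKBKB, a kinase of the NF-κB inhibitor, was 2.16-fold (1.88 to 2.48) higher at P5. PIK3AP1 was 5.72-fold (4.26 to 7.81) lower at P5. SARM1, a TIR protein that hydrolyses NAD+, had 478 reads in intestine, 0 in muscle, 439 at P5 and 2 at P10, 286-fold (78.8 to 2370) lower at P10 than at P5. IKBKE, a kinase of interferon regulatory factors, was 3.33-fold (2.40 to 4.69) lower at P10 than at P5, and MAP3K7 (TAK1) had a ratio to intestine of 0.534 (0.420 to 0.676) at P5. With TMM normalisation IRAK1 and IKBKB fell within 2-fold of intestine at P5.

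Of the 10 transcription factors, 9 were within 2-fold of intestine at P5 and 1 was lower, beside 23.7% of all rows, and at P10 7 were within 2-fold and 3 lower, beside 28.2%. At P5 REL was 2.06-fold (1.65 to 2.57) lower, next to IRF5 with a ratio of 0.528 (0.454 to 0.612). RELB and IRF7, whose own genes are induced by NF-κB and by interferon, were 4.39-fold (3.28 to 5.96) and 4.02-fold (3.06 to 5.35) lower in P10 than in P5 organoids, where RELA and IRF3 had ratios of 1.53 (1.36 to 1.73) and 1.58 (1.42 to 1.75). Among the 12 inhibitors, 1 was higher and 1 lower than intestine at P5, beside 22.8% and 23.7% of all rows. At P10 1 was higher and 3 were lower, beside 26.2% and 28.2%. With TMM 5 were lower, and the share of all rows was not counted with that scaling. SIGIRR, an orphan receptor that restrains TLR signals in epithelium, had 87 reads in intestine, 11 in muscle, 253 at P5 and 516 at P10, and was 3.80-fold (2.97 to 4.91) higher than intestine at P5. TOLLIP, which binds the IRAK kinases, differed little, with a ratio of 0.877 (0.817 to 0.941). IL1RL1, the receptor for IL-33, was 48.2-fold (18.6 to 178) lower. TNFAIP3 (A20), a ubiquitin editor induced by NF-κB, had 454 reads in intestine, 40 in muscle, 271 at P5 and 28 at P10, 12.6-fold (8.54 to 19.4) lower at P10 than at P5. NFKBIA, which holds NF-κB in the cytoplasm and is itself a target of it, was 2.69-fold (2.48 to 2.91) lower at P10, and TNIP1, which acts with TNFAIP3, had a ratio of 1.24 (1.09 to 1.41). Against intestine at P5, IRAK3 had a ratio of 0.536 (0.401 to 0.711) and TNFRSF21 a ratio of 1.496 (1.40 to 1.60).

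Of the 10 target genes, 8 were detected in P5 organoids or intestine, 2 of them higher and 5 lower in the organoids, beside 22.8% and 23.7% of all rows. CCL20, an epithelial chemokine, had 21 reads in intestine, 0 in muscle, 1512 at P5 and 87 at P10, and was 94.1-fold (61.3 to 152) higher than intestine at P5 and 22.7-fold (18.3 to 28.5) lower at P10 than at P5. CXCL8, a neutrophil chemokine, had 74, 0, 257 and 90 reads in the same order. PTGS2, the inducible cyclooxygenase, and IL1B had 207 and 100 reads in intestine, 0 and 3 at P5 and 0 at P10. IL6 had no read in any library. NFKBIZ, an inducible co-factor of NF-κB, was 1.34-fold (1.13 to 1.60) higher at P10 than at P5. TNF, named after its values were seen, was 2.15-fold (1.013 to 4.96) higher, with 10 reads at P5 and 28 at P10.

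**Figure D5:**
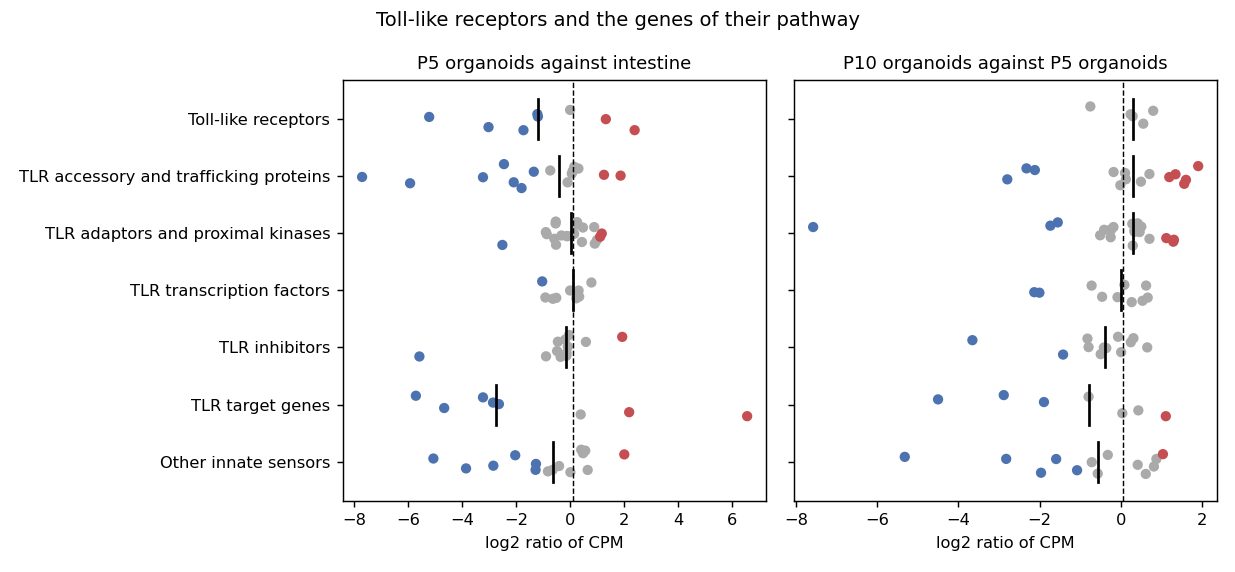
Log2 ratio of CPM for each detected gene of the family and of 6 other lists, in P5 organoids against intestine (left) and P10 against P5 organoids (right), with counts under 3 raised to 3. Red and blue points are at least 2-fold higher and lower, black bars are list medians and the dashed line is the median of all rows. The medians include genes detected in 1 of the libraries alone, such as TLR7, TLR8 and TLR10, and most adaptors lie between the 2-fold limits at P5.

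The other innate sensors were compared as the most similar set. In P5 organoids 1 of 15 was higher than in intestine and 6 were lower, beside 22.8% and 23.7% of all rows. In P10 organoids 1 was higher and 9 were lower, beside 26.2% and 28.2%. CLEC7A, a receptor for fungal glucan, and NLRP1 had 132 and 57 reads in intestine and 0 in P5 organoids. NLRP3, an inflammasome sensor, was 4.01-fold (2.63 to 6.27) higher at P5 than in intestine and had 92 reads at P5 and 0 at P10. The cytosolic sensor of long duplex RNA, IFIH1, had 276 reads in intestine, 9 in muscle, 212 at P5 and 39 at P10, 7.09-fold (5.02 to 10.2) lower at P10 than at P5. NLRP6, a sensor of the intestinal epithelium, had 883, 2, 1057 and 456 reads in the same order. TMEM173 (STING), which relays the signal of the DNA sensor CGAS, was 2.05-fold (1.30 to 3.31) higher at P10 than at P5, and CGAS had a ratio of 1.53 (1.196 to 1.96). Between passages, 5 of 13 sensors were lower and 1 was higher, beside 20.8% and 17.2% of all rows, and none of the 5 detected Toll-like receptors was lower by 2-fold. The difference between these counts was not tested.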

How the data were processed

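RNA extracted with Trizol was made into QuantSeq libraries and read on a NextSeq 500. Alignment was with Bowtie2 and counting with Bedtools, which took in reads that align at more than 1 place. The authors deposited whole-number counts of reads per gene symbol, without normalisation. Reads shared by similar genes are therefore uncertain, and the strand setting, genome build and annotation are not given in the sources used here, so no coordinates or sequences are given. The submitters' processing notes also name edgeR.

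Counts were divided by the library total. The study names quantile normalisation; it gives a single read unequal values in the 4 libraries, so it was an alternative here, beside edgeR's TMM and upper-quartile factors, totals without RN18S1, a limit of 10 reads, no limit with 0.5 added to each count, 3-fold and rows summed by symbol. For the pathway lists, 3 of these were added after seeing the data. Intervals are Clopper-Pearson, for ratios conditional on the summed reads, and are not adjusted for the 6 comparisons. All members were named. From each pathway list the 2 highest and 2 lowest ratios among genes with at least 50 reads were named, for P5 organoids against intestine and P10 against P5 organoids, with 8 fixed partners such as CD14, and for each member with at least 50 reads the 3 rows of most similar pattern. The members and lists were chosen with earlier results of these data known. The procedure was tested on simulated counts with independent reads, and changes were placed only in rows with many reads. Recovery of changes in genes with few reads, or with copies made by PCR, was not tested. The software was R 4.3.3 with limma 3.58.1 and edgeR 4.0.16, and Python 3.11.15 with scipy 1.17.1, matplotlib 3.10.9, pandas 2.3.3 and numpy 2.4.6.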

Additional observations from a re-analysis of the deposited data

Results flagged for a closer look

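TLR4 is listed because P5 and P10 organoids fell either side of its level in intestine. Its ratio of CPM to intestine was 0.996 in P5 organoids, where the counting interval included 1, and 1.73 in P10 organoids. With 1 library for each passage, this difference was not tested.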

How the results depend on the processing

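No paired analysis was possible because each sample has 1 library. Against intestine, TLR2 and TLR5 stayed higher, and TLR3, TLR6, TLR7 and TLR8 lower, by at least 2-fold at both passages under all scalings and read limits run. TLR10 was lost from the lower genes with quantile normalisation and with a limit of 10 reads, and turned to a log2 ratio of 0.688 at P10 with the former. At 3-fold, 1 gene was higher and 3 lower at either passage against intestine. The share of all rows was not counted at 3-fold, so these counts have nothing to be set beside. With no limit on reads, 1 gene (TLR8, 1 read against 0) was lower at P10 than at P5. Against muscle, the median row lay at 1.14 to 1.22 by library totals. With TMM, upper-quartile or quantile normalisation it lay between -0.21 and 0.13. With each of these and at 3-fold, the number of members higher fell from 3 to 1 at P5 and from 4 to 1 at P10. Without RN18S1 it fell to 2 at P10. None was lower in organoids with a limit of 10 reads (0) and none in intestine at 3-fold (0). The share of all rows was counted by library totals at 2-fold alone, so these falls are not a result about the receptors. Log2 ratios to muscle turned to -0.918 (quantile) and -0.052 (upper quartile) for TLR10 in intestine, to -0.112 (upper quartile) for TLR5 at P5, to -0.111 (quantile) and -0.052 (upper quartile) for TLR4 at P10, and to -0.001 (TMM) and -0.174 (upper quartile) for TLR3 at P10.

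The pathway lists were rerun under 3 scalings chosen after seeing the data. The share of all rows was not counted under these scalings. At P5 against intestine, adaptors had 0 higher with TMM, 1 with upper quartile, and 3 lower with either; transcription factors had 2 lower with all 3 scalings, inhibitors 2 lower with TMM or upper quartile, and other sensors 2 higher with quantile. At P10 against intestine, inhibitors had 5 lower and other sensors 0 higher with TMM or upper quartile, and targets 2 higher with quantile. At P10 against P5, targets had 0 higher with upper quartile, and other sensors 0 higher with TMM or upper quartile and 3 lower with quantile. CD180 and AIM2 turned to log2 ratios of 0.536 and 0.771 at P10 against intestine with quantile normalisation. The cause of these shifts was not tested. Counts of 3 reads or fewer set the limit for TLR7 to TLR10 in organoids.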

Other observations

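Flagellin is also detected inside cells, by NAIP with NLRC4. These genes, chosen after their values were seen, went opposite to TLR5. NAIP had 129 reads in intestine, 4 in muscle, 24 at P5 and 19 at P10, and NLRC4 had 66, 2, 7 and 16. NAIP was 6.77-fold (4.17 to 11.6) lower in P10 organoids than in intestine and NLRC4 4.11-fold (2.36 to 7.61) lower, where TLR5 was 6.37-fold higher.

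IRF8, a transcription factor known from myeloid and B cells, was also picked after its values were seen. It had 1527 reads in intestine, 20 in muscle, 816 at P5 and 1536 at P10, with a ratio to intestine of 1.008 (0.939 to 1.08) at P10. In the same P10 library 4 of 7 pan-leukocyte and 7 of 10 macrophage markers had 0 reads, while LCP1 had 274, PTPRC 43, CD68 21, CD247 22 and the B cell genes JCHAIN, CD79A and CR2 82, 35 and 24.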
